A study of Mus musculus with 146 samples.

Results

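The ubiquitin-conjugating enzyme (E2) genes were examined in single germ cells of the newborn mouse ovary. They were taken by name. A gene belonged to the group when its whole symbol was Ube2 followed by letters or digits, and Ube2c was left out. Of 52605 gene symbols in the deposited tables, 37 met this rule. The levels are TPM, which estimate transcript numbers with a correction for gene length and sum to 1000000 in each cell. Of the 37 genes, 33 reached 0.1 TPM in at least 10 cells, and 4 did not (Ube2d2b, Ube2ql1, Ube2dnl1 and Ube2dnl2). A pair of the 37 are not E2 genes. Ube2cbp encodes an E3-type ubiquitin ligase named for its binding to Ube2c, and Ube2uos is a noncoding gene antisense to Ube2u. The other 35 encode E2 enzymes or their relatives.

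Ubiquitin is joined to proteins in a relay: an E1 enzyme activates it, an E2 enzyme carries it on a cysteine, and an E3 ligase brings the loaded E2 to its substrate. Most E2s carry ubiquitin, but Ube2f and Ube2m carry NEDD8, Ube2l6 carries ISG15, and Ube2v1 and Ube2v2 lack the cysteine and work beside Ube2n. In meiotic germ cells, ubiquitin and SUMO are known to mark chromatin and the axes of paired chromosomes, and ubiquitin-dependent turnover accompanies the later growth of the oocyte.

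The study followed germ cells of P0.5 ovaries through cyst breakdown and the formation of follicles. Ovaries (n = 5) came from newborn C57/BL6J females of the same litter and were dissociated with trypsin. Germ cells were picked by mouth pipette, and each gave 1 Smart-seq2 library with ERCC spike-in RNA, of which those with Foxl2 cDNA were discarded after PCR. There was no treatment and no control group, and the labels name no animal, ovary or plate, so all cells count as 1 sample. No p-value was therefore computed, and each SD below is a spread between cells that says nothing of the spread between animals.

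Of the 146 libraries, 14 formed 7 pairs that looked like the same cell sequenced again. Within these pairs the log2 CPM (reads scaled to 1000000 per library) correlated at r = 0.995 to 0.998, while the highest value in any other pair was 0.826. The chi-square per gene of their reads was 1.68 to 4.62 in these pairs and at least 184.9 in all others. The labels do not say that cells were sequenced again. Each pair was averaged and counted as 1 cell. A cell without Ddx4, the germ cell helicase Vasa, was removed, as the rule on cells asks (Ddx4 under 1 TPM), and the others were used. The cells kept with the least Ddx4 had 7.49 and 18.3 TPM, against a median of 185 TPM. Estimated reads per cell ran from 4837060 to 33117400. Ddx4 was at 1 TPM or more in every cell used because the rule asks for it. Of the other germ cell genes read, Dazl, Sycp3 and Tdrd9 were so in every cell, Mael in 98.6% and Dppa3 in 89.1%. Each of 8 pregranulosa markers reached 1 TPM in 0 to 10 cells (Foxl2 in 4, Wnt4 in 10) and each of 7 stroma markers in 1 to 50 (Nr2f2 in 50). Of the white blood cell genes, Ptprc did so in 15 cells and Tyrobp in 0, and globin exceeded 10000 TPM in 11.

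The reactive cysteine of an E2 stands shortly after a histidine-proline-asparagine triplet that the family shares. The codons of this run were read from GENCODE M21 transcripts on GRCm38 (mm10) and are shown for the genes whose levels are followed most closely below, with the cysteine codon in capitals.

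Ube2a: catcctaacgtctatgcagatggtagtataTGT
Ube2b: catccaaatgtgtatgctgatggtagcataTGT
Ube2d3: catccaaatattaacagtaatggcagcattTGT
Ube2n: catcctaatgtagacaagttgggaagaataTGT
Ube2t: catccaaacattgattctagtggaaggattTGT
Ube2e1: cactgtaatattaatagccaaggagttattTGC
Ube2e2: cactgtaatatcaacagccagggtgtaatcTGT
Ube2e3: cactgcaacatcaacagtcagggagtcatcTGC

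The run lies at chrX:36881737-36882621 (plus strand, exons 4 and 5 of 6) in Ube2a and at chr11:51988678-51991403 (minus strand, exons 4 and 5 of 6) in Ube2b, where an intron divides it in both genes. It lies at chr3:135459999-135460031 (plus) in Ube2d3, chr10:95541403-95541435 (plus) in Ube2n and chr1:134971296-134971328 (plus) in Ube2t. The Ube2e runs lie at chr14:18284365-18284397 (minus) in Ube2e1, chr14:18586942-18586974 (minus) in Ube2e2 and chr2:78918711-78918743 (plus) in Ube2e3, each within exon 5 of 6. Of the 36 genes with a coding transcript, 21 had the triplet followed by a cysteine codon. The 3 Ube2e genes had another residue in place of the proline, and in the remaining 12, Ube2v1 and Ube2v2 among them, the search found no such run. The cysteine was residue 88 in Ube2a and in Ube2b, 85 in Ube2d3, 87 in Ube2n and 86 in Ube2t. Over the whole coding sequence, Ube2a and Ube2b were 77.6% identical, Ube2e2 and Ube2e3 75.2%, Ube2e1 and Ube2e2 72.3%, and Ube2j1 and Ube2j2 46%.

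Ube2d3, which serves many RING-type ligases, was among the most abundant transcripts of these germ cells. It had a mean of 1109 TPM (SD 465 over cells) and stood at percentile 99.57 of mean TPM among the coding genes that passed the same filter.

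Below it came Ube2s, which extends chains for the anaphase-promoting complex, at 373 TPM (SD 244), and Ube2a, a homologue of yeast Rad6, at 301 TPM (SD 162). They were followed by Ube2v1 at 257 TPM (SD 190), Ube2n, which builds chains with Ube2v1 or Ube2v2, at 201 TPM (SD 110), and Ube2e3 at 178 TPM (SD 122.7). Ube2b, the other Rad6 homologue, had 173 TPM (SD 111.2), Ube2t, the E2 of the Fanconi anaemia pathway, 172 TPM (SD 165), and Ube2j2, a membrane-anchored E2 of the endoplasmic reticulum, 155 TPM (SD 100.6). From Ube2n down to Ube2j2, each step in this order was smaller than the spread between cells. In all, 15 genes had a mean of at least 100 TPM, 14 had 10 to 100 TPM, 3 had 1 to 10 TPM and 5 had less than 1 TPM.

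Reads counted without regard to gene length gave a similar order. Spearman's rho between the order by TPM and that by CPM was 0.916 over the 37 genes, and 21 genes kept their rank to within 2 places. Ube2a moved from rank 4 by TPM to rank 9 by CPM, and Ube2e2 from rank 18 to rank 30. The level of Ube2e2 rests on few reads, with a median of 62.5 per cell. Its reads per TPM correspond to a length of 255, 321 and 439 bases in the 3 clusters described below, shorter than its coding sequence of 603 bases.

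The genes differed in how evenly they were spread over cells. Ube2d3 and Ube2n were at 1 TPM or more in every cell, and 16 genes were so in over 95% of cells. Ube2cbp was at 1 TPM or more in 52 cells (37.7%, exact 95% interval 29.6 to 46.3, which covers counting error only) and at 0 in 66. Where it was present, its median was 32.1 TPM. Ube2j1, the other membrane-anchored E2 of the endoplasmic reticulum, was at 1 TPM or more in 99 cells (71.7%, 63.5 to 79.1), with a median of 48.1 TPM in those cells, and at 0 in 20. Ube2o, a large protein that acts as E2 and E3 at once, was present at that level in 60.9% of cells, Ube2q1 in 67.4%, Ube2d1 in 74.6%, Ube2e2 in 78.3%, Ube2m in 81.2% and Ube2g2 in 85.5%. Ube2l6 reached 1 TPM in 10 cells, Ube2u in 12 and Ube2d2b in 4. Ube2dnl1 and Ube2dnl2 on the X chromosome were listed at 0 in every cell.

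**Figure D1:**
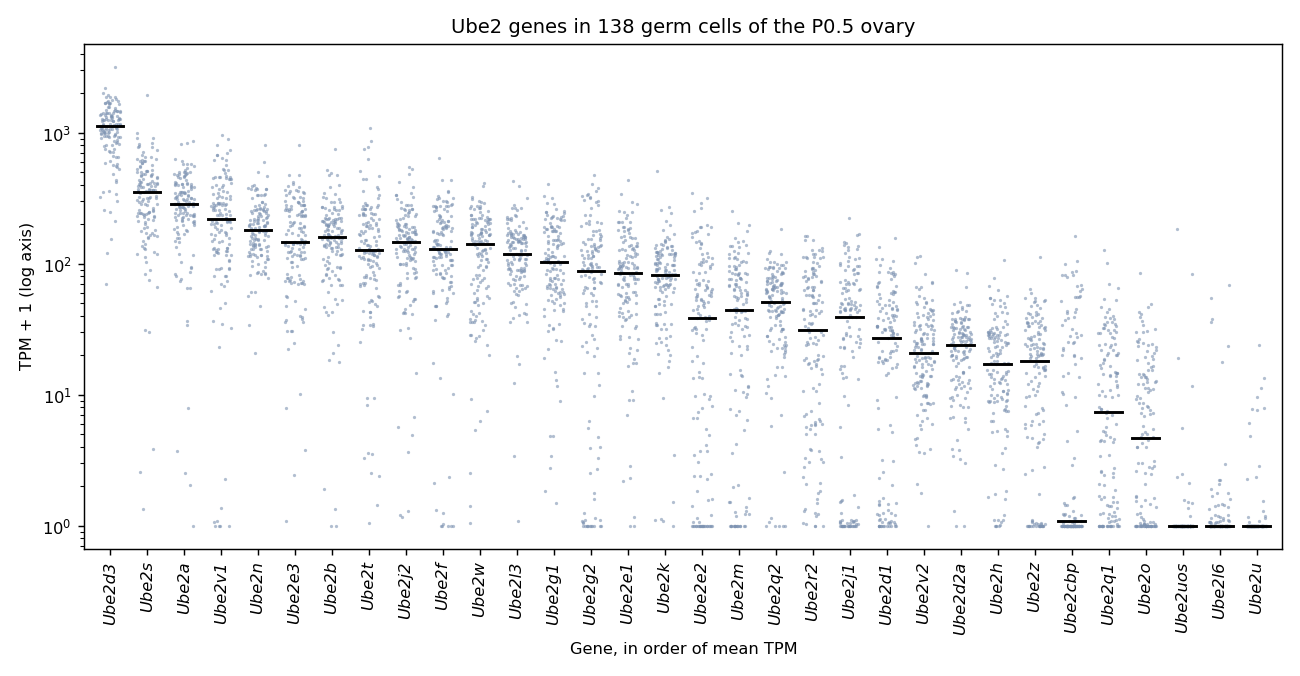
TPM + 1 per cell (log axis) for 32 of the 33 genes that passed the filter, in order of mean TPM; each point is a cell and the bar is the median. Ube2d3 stands highest, near 1000 TPM, while Ube2cbp, Ube2j1 and Ube2e2 split into cells mostly above 10 TPM and cells at or near 0.

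The 7 pairs of libraries, all of them from cluster 2 as defined below, show how far a repeat of 1 cell reproduces these levels. Over the 29 genes with a mean of at least 10 TPM, the median difference within a pair was 0.07 on the log2 scale. The SD within pairs was 6.97% of the SD between cells for the median gene, from 2.96% in Ube2j1 to 45.1% in Ube2k. The on and off pattern of Ube2j1 and Ube2cbp thus came back in the repeat, with SDs within pairs of 2.96% and 8.14% of those between cells. Ube2n was the least steady gene after Ube2k, at 37.2%, followed by Ube2d2a at 21.04% and Ube2r2 at 19.5%. In 6 genes at least 1 pair differed by 1.5-fold or more. The pairs share the cell and may share the amplified cDNA, so this spread does not include the loss of RNA at capture.

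**Figure D2:**
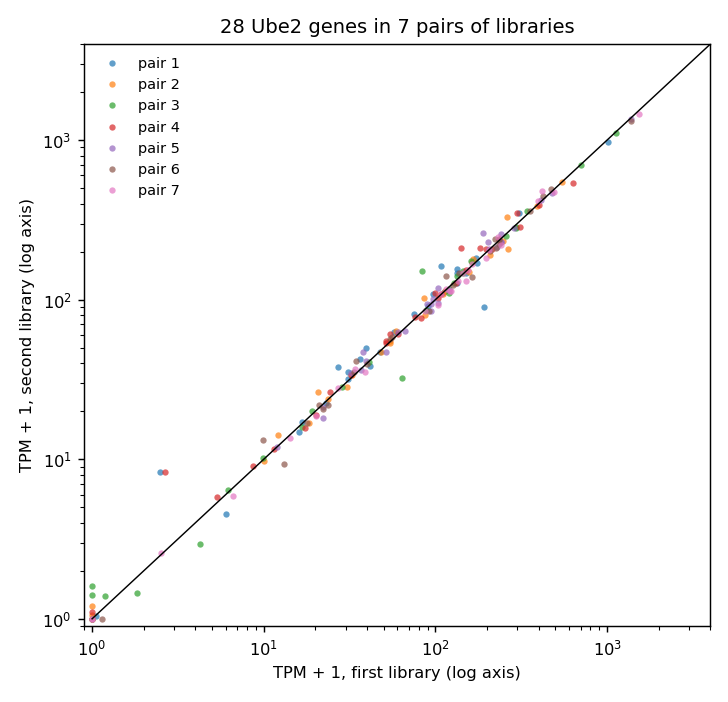
TPM + 1 of 28 of the 29 genes in the first and second library of the 7 pairs counted as 1 cell each (both axes log, line of equality drawn). Most points lie on or near the line, and a few lie 1.5-fold or more from it, at low levels (Ube2m at 1.48 and 7.34 TPM) and at higher ones (Ube2k at 192 and 89.5 TPM).

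To see how the genes differed across the states of these germ cells, 3 clusters were rebuilt from 20 oocyte and meiosis genes, none of them a Ube2 gene. The study also clustered its cells on 20 marker genes. All of the genes used here are named in its text for this purpose except Taf4b, which was added to make up the number. Whether the study used Taf4b is not known. They held 19, 86 and 33 cells, sizes that differ from those of the paper's own 3 clusters. All values by cluster below are over the 19, 86 and 33 cells. The meiotic axis gene Sycp2 averaged 495, 169 and 62.4 TPM in clusters 1, 2 and 3, the oocyte transcription factor Figla 309, 1718 and 1162 TPM, and the zona pellucida gene Zp3 0.0943, 15.9 and 557 TPM. These 3 genes helped define the clusters and are given only to say what the numbers stand for. The clusters also differed in technical measures. Median estimated reads were 9615240, 9317550 and 10711100, mitochondrial reads 5.22%, 6.20% and 7.74%, spike-in reads 0.345%, 0.430% and 0.279%, and genes with a read 12424, 12249 and 14506. The summed TPM of 8 pregranulosa markers had a median of 0.314, 0.347 and 0.817, ranging over cells up to 12.8, 81.6 and 13.7, and that of 7 stroma markers 4.35, 0.975 and 0.575, ranging up to 294, 879 and 81.5. The part of these measures in the results below was not tested.

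A gene was called different between clusters when the means of TPM + 1 differed by at least 1.5-fold, which is 0.585 on the log2 scale. Between clusters 1 and 2, 5 of the 32 coding Ube2 genes that passed the filter (Ube2cbp included) were higher in cluster 2 and 6 were lower, beside 21.9% and 20.1% of all 13817 coding genes. Between clusters 2 and 3, 3 were higher in cluster 3 and 5 lower, beside 15.5% and 25.3%. Between clusters 1 and 3, 7 were higher in cluster 3 and 9 lower, beside 25.1% and 32%. On this scale the shares of the Ube2 genes were thus near or below those of all genes, and the group as a whole did not stand out. Its median log2 ratio was -0.07, -0.19 and -0.22 in the 3 comparisons, beside 0.03, -0.14 and -0.08 for all genes. The summed TPM of the 37 genes was also close, at 5368 (SD 1140), 5320 (SD 1465) and 4901 (SD 1276) in clusters 1, 2 and 3. Within the group, the genes past 1.5-fold in at least 1 comparison are followed below, apart from a few that are not reported here.

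The distributions overlapped. No Ube2 gene had whole ranges apart in any comparison, against 0.159% (higher) and 0.0289% (lower) of all genes between clusters 1 and 3. The quartile ranges, from the lower to the upper quartile of the cells, stood apart between clusters 1 and 3 for 3 genes that were higher in cluster 3, Ube2n and Ube2q2 among them, beside 6.64% of all genes. They stood apart also for Ube2e2, Ube2e3 and Ube2z, which were lower, beside 5.22%. No Ube2 gene did so between clusters 1 and 2 (0.818% of genes higher, 0.688% lower) or between clusters 2 and 3 (1.91% and 0.499%).

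Ube2e2 and Ube2e3 had the lowest ratios of cluster 3 to cluster 1 among the E2 genes. The Ube2e proteins have an added stretch before the catalytic fold. In cluster 1, Ube2e3 ran from 38.7 TPM through a median of 237 to 385 TPM. In cluster 2 it ran from 1.43 through 191 to 812 TPM, and in cluster 3 from 0.0773 through 74.3 to 172 TPM. Its highest cell in cluster 3 was therefore below the median of cluster 1 and of cluster 2, although the low ends of all 3 ranges overlapped. The means were 240 (SD 102.96), 201 (SD 127.4) and 81.7 TPM (SD 46.2), and the log2 ratio of cluster 3 to cluster 1 was -1.54. By CPM the ratio was -1.16, and per spike-in TPM it was -0.66.

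Ube2e2 had the lowest ratio of all E2 genes. It ran from 8.84 through 61.6 to 343 TPM in cluster 1, from 0 through 40.6 to 316 TPM in cluster 2, and from 0 through 6.86 to 97.7 TPM in cluster 3. All 19 cells of cluster 1 held at least 1 TPM, but 65 of 86 in cluster 2 and 24 of 33 in cluster 3. The means were 106.4 (SD 93.6), 59.8 (SD 67.7) and 20.98 TPM (SD 27.98), with a log2 ratio of -2.29 between clusters 1 and 3, -1.27 by CPM and -1.74 per spike-in TPM. The ratio by CPM is closer to 0 than that by TPM, and the length per read also differed between the clusters (above). Ube2e1 did not share this pattern: its means were 71.1 (SD 62.8), 103.3 (SD 73.8) and 96.03 TPM (SD 76.8), and its log2 ratio of 0.43 was under 1.5-fold. By CPM (0.59), by means of log2 values (0.81) and per spike-in TPM (1.09) it was past it, as higher in cluster 3.

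The make-up of the Ube2e group therefore differed between clusters. Ube2e1 held 17.05%, 28.4% and 48.3% of the summed mean TPM of the 3 genes in clusters 1, 2 and 3, Ube2e2 25.5%, 16.4% and 10.6%, and Ube2e3 57.5%, 55.2% and 41.1%. By CPM the share of Ube2e1 was 18.5%, 27.96% and 43.8%, that of Ube2e2 only 6.55%, 4.83% and 3.99%, and that of Ube2e3 74.9%, 67.2% and 52.2%, so the part of Ube2e2 depends strongly on the scale. Ube2e1 provided over 50% of the group in 1 of 19 cells of cluster 1, 10 of 86 of cluster 2 and 16 of 33 of cluster 3. Of the 31-base words in Ube2e1 transcripts, 16.3% also occur in Nkiras1, so part of its reads could belong to that gene.

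Ube2d3 had similar levels by TPM in all 3 clusters. It ran from 722 through 1166 to 3179 TPM in cluster 1, from 68.7 through 1139 to 2200 TPM in cluster 2 and from 154 through 965 to 1733 TPM in cluster 3, so all 3 ranges lay over each other. Its log2 ratio of cluster 3 to cluster 1 was -0.37 by TPM, -0.08 by CPM and 0.40 per spike-in TPM, and Ube2d3 held 94.7%, 95.4% and 95.7% of the TPM of the Ube2d genes. Ube2d2a, at 34.95 (SD 20.9), 22.5 (SD 12.9) and 19.4 TPM (SD 11.1), was lower in cluster 3 by a log2 ratio of -0.82. By CPM (-0.55) and per spike-in TPM (0.10) it did not pass 1.5-fold. Ube2d1 had means of 35.8, 31.8 and 25.0 TPM and a ratio of -0.50. Ube2w, which attaches ubiquitin to the amino terminus of proteins, was higher, with means of 103.8 (SD 66.5), 131.6 (SD 85.6) and 172 TPM (SD 94.5) and log2 ratios of 0.73 by TPM, 0.98 by CPM and 1.59 per spike-in TPM, but 0.46 with clusters from 2000 variable genes. Ube2q2 was also higher. It ran from 0 through 23.03 to 83.8 TPM in cluster 1, from 0 through 58.5 to 182 TPM in cluster 2 and from 10.7 through 54.7 to 116.997 TPM in cluster 3, with a log2 ratio of 1.10 between clusters 3 and 1 and 0.96 between clusters 2 and 1. Per spike-in TPM these were 1.88 and 0.83, and with clusters from 2000 variable genes 0.43 and 0.25, both under 1.5-fold. Ube2q2 shares 19.7% of its 31-base words with Gm4895.

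**Figure D3:**
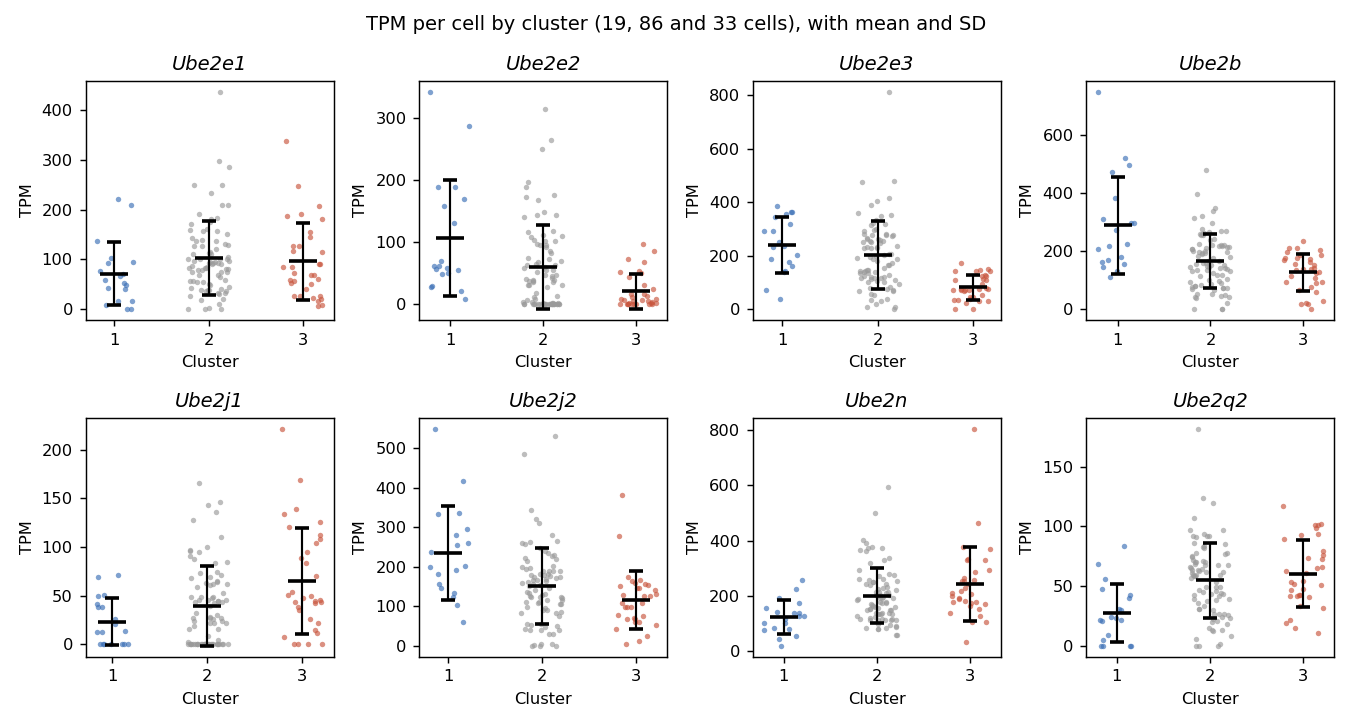
TPM per cell of 8 E2 genes by cluster (19, 86 and 33 cells); each point is a cell, the long bar the mean and the whiskers 1 SD. Ube2e2, Ube2e3, Ube2b and Ube2j2 sit lower and Ube2j1, Ube2n and Ube2q2 higher in cluster 3 than in cluster 1, with overlapping cells throughout, while Ube2e1 is not lower in cluster 3.

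Ube2a and Ube2b ubiquitinate histones with the ligases Rnf20 and Rnf40 and the sliding clamp of replication with Rad18. Ube2b ran from 110.8 through 224 to 748 TPM in cluster 1, from 0 through 157 to 478 TPM in cluster 2 and from 0 through 137.4 to 233 TPM in cluster 3. All but the upper part of cluster 1 overlapped with cluster 3. Its means were 289 (SD 167), 165 (SD 92.7) and 126.6 TPM (SD 63.7), and the log2 ratio of cluster 3 to cluster 1 was -1.18 by TPM, -1.08 by CPM and -0.43 per spike-in TPM. Ube2a ran from 101.9 through 352 to 858 TPM, from 1.51 through 281 to 827 TPM and from 0 through 264 to 485 TPM in clusters 1, 2 and 3. Its means of 372 (SD 183), 302 (SD 168) and 259 TPM (SD 120) gave a ratio of -0.52, under 1.5-fold, and one of 0.44 per spike-in TPM. By CPM that ratio was -0.45, and by means of log2 values it was -0.83, past 1.5-fold as lower. Between clusters 2 and 1 the ratio by CPM was also past it, at -0.63. Ube2a, which is on the X chromosome, held 56.3% of the pair in cluster 1, 64.6% in cluster 2 and 67.2% in cluster 3. It was the larger of the pair in 10 of 19, 70 of 86 and 28 of 33 cells. Across all cells their levels were nearly unrelated (Spearman's rho 0.16).

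The membrane-anchored pair of the endoplasmic reticulum stood in opposite order. Ube2j1 ran from 0 through 13.6 to 70.9 TPM in cluster 1, from 0 through 27.9 to 165 TPM in cluster 2 and from 0 through 47.1 to 222 TPM in cluster 3. It was at 1 TPM or more in 12 of 19, 58 of 86 and 29 of 33 cells, so both the share of positive cells and the level were higher in cluster 3. The means were 23.4 (SD 24.3), 39.2 (SD 40.9) and 64.98 TPM (SD 53.96), a log2 ratio of 1.44 between clusters 3 and 1, 1.04 by CPM and 2.39 per spike-in TPM. Ube2j2 went the other way. It ran from 60.2 through 202 to 550 TPM, from 0.161 through 149 to 532 TPM and from 3.90 through 110 to 381 TPM, with means of 235 (SD 117.98), 151 (SD 96.7) and 117.3 TPM (SD 73.1). Its log2 ratio was -0.997 by TPM, -1.01 by CPM and -0.27 per spike-in TPM. The share of Ube2j1 in the pair was 9.04%, 20.6% and 35.7% in clusters 1, 2 and 3 (by CPM 14.2%, 23.7% and 41.3%). It was the larger of the pair in 0 of 19, 10 of 86 and 7 of 33 cells, and Spearman's rho between the genes over all cells was -0.01.

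Ube2g2, which acts in degradation from the endoplasmic reticulum, was highest in cluster 2. It ran from 0 through 50.6 to 204 TPM, from 0 through 95.2 to 472 TPM and from 0 through 63.8 to 316 TPM in clusters 1, 2 and 3. The ranges of the 3 clusters shared their lower ends. The log2 ratio of cluster 2 to cluster 1 was 0.92 (0.98 by CPM, 1.03 per spike-in TPM). That of cluster 3 to cluster 2 was -0.62, but -0.52 by CPM and 0.06 per spike-in TPM. Its relative Ube2g1, which works with cullin ligases, had means of 127.9, 124.3 and 89.6 TPM, with no ratio past 1.5-fold.

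**Figure D4:**
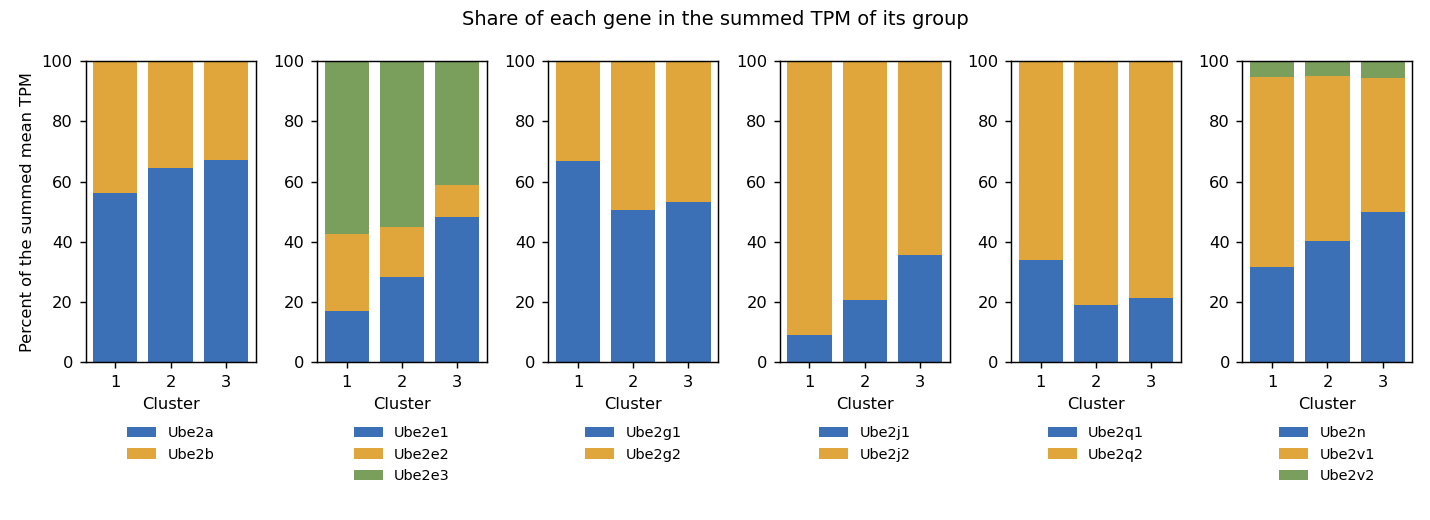
Share of each gene in the summed mean TPM of its group, in percent, for 6 groups of related E2 genes in clusters 1, 2 and 3. The parts of Ube2e1, Ube2j1 and Ube2n are larger from cluster 1 to 3 (17.05% to 48.3%, 9.04% to 35.7% and 31.5% to 49.98%), while the Ube2a part differs less.

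Ube2n and its cofactors act in DNA repair and immune signalling. Ube2n ran from 19.9 through 128.7 to 259 TPM in cluster 1, from 59.5 through 182 to 592 TPM in cluster 2 and from 33.1 through 212 to 805 TPM in cluster 3. Most cells of cluster 1 lay below the lower quartile of cluster 3, at 175 TPM. The means were 124.8 (SD 60.2), 202 (SD 99.3) and 244 TPM (SD 134.5), a log2 ratio of 0.96 between clusters 3 and 1, 0.72 by CPM and 1.76 per spike-in TPM. Its cofactor Ube2v1 had means of 250, 274 and 216 TPM and a ratio of -0.21, and Ube2v2 had means of 21.1, 24.9 and 27.7 TPM and a ratio of 0.37. Per spike-in TPM their ratios were 0.73 and 1.15, both past 1.5-fold. Ube2n held 31.5%, 40.3% and 49.98% of the summed TPM of these 3 genes (by CPM 24.1%, 28.9% and 34.4%). The values of Ube2n and Ube2v1 carry more doubt than most. Ube2n shares 10% of its 31-base words with the pseudogene Ube2n-ps1, which itself averaged 73.1, 108.7 and 95.5 TPM, and Ube2n was among the least steady genes within pairs of libraries. Ube2v1 shares 58.7% with the read-through gene Gm20431.

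Of the E2s that carry other modifiers, the NEDD8 enzymes Ube2f and Ube2m did not pass 1.5-fold by TPM in any comparison. Per spike-in TPM the ratios of cluster 3 to cluster 1 were 1.08 and 0.95, and those of cluster 3 to cluster 2 were 0.91 and 0.71, all past it. Ube2f averaged 117.5, 153 and 157 TPM, and Ube2m 47.6, 55.8 and 46.3 TPM. Ube2l6 reached 1 TPM in only 1, 4 and 5 cells of the 3 clusters, so its ratios (-1.49, 2.08 and 0.59) rest on those few cells.

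Ube2t, which with Fancl marks crosslinked DNA for repair, was lowest in cluster 2. It ran from 48.6 through 164 to 1092 TPM, from 0.0493 through 106.6 to 779 TPM and from 2.26 through 194 to 751 TPM in clusters 1, 2 and 3. The means were 260 (SD 271), 137.04 (SD 130.5) and 213 TPM (SD 144.7), with log2 ratios of -0.92 between clusters 2 and 1, 0.63 between clusters 3 and 2, and -0.29 between clusters 3 and 1. A few high cells carried the mean of cluster 1, whose median was below that of cluster 3. Both calls were lost with clusters from 2000 variable genes (-0.12 and 0.52) and with bins of equal size on the first principal component (-0.27 and 0.49).

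The remaining calls were of lower genes. Ube2r2, a relative of Cdc34 that serves cullin ligases, averaged 44.6, 49.1 and 27.7 TPM, Ube2h 27.5, 20.2 and 14.4 TPM, and Ube2z, which takes ubiquitin from Uba6, 24.5, 19.8 and 14.1 TPM. They were lower in cluster 3 than in cluster 1 by log2 ratios of -0.67, -0.89 and -0.75. By CPM the ratios were -0.18, -0.71 and -0.51, by means of log2 values -0.12, -0.35 and -1.08, and per spike-in TPM 0.04, -0.08 and -0.13, so none of these calls held on every scale. Ube2cbp averaged 14.7, 18.7 and 7.43 TPM and was lower in cluster 3 by a log2 ratio of -1.23 against cluster 2. Per spike-in TPM that ratio was -0.43 and by means of log2 values -0.46, both under 1.5-fold. It was at 1 TPM or more in 7 of 19, 33 of 86 and 12 of 33 cells, so the proportion of positive cells differed little. Ube2u averaged 0.0810, 0.538 and 1.26 TPM, with 1, 4 and 7 cells at 1 TPM or more. Its antisense gene Ube2uos was at 1 TPM or more in 8 cells, none of them in cluster 1. None of the 31-base words of Ube2uos was found in another gene. The reads carry no strand information, and how they were divided between the pair was not tested. Of the genes not called, Ube2k came nearest, with a ratio of -0.58 between clusters 3 and 1 and means of 114.2, 85.9 and 75.96 TPM.

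These ratios depend on the scale on which the levels are read. Dividing TPM by the spike-in TPM of the cell raised the median log2 ratio of all genes to 0.34 between clusters 3 and 1 and to 0.49 between clusters 3 and 2. On that scale cluster 3 exceeded cluster 1 by at least 1.5-fold in 13 of the 32 coding Ube2 genes (40.6%), beside 41% of all genes, and fell as far below it in 2 (Ube2e2 and Ube2e3), beside 17.8%. Against cluster 2 it was higher in 22 (68.8%), beside 45.4% of all genes, and lower in 1, beside 7.82%. The share of higher Ube2 genes was thus near that of all genes in the first of these comparisons and above it in the second. Across all 16 other settings tried, Ube2e2, Ube2e3, Ube2n and Ube2j1 stayed past 1.5-fold between clusters 1 and 3, as did Ube2e2 between clusters 2 and 3 and Ube2g2 between clusters 1 and 2. All other calls fell under 1.5-fold in at least 1 setting. Not every setting could move a ratio. The changes of filter leave the ratio of a gene as it is. Counting libraries of 1 cell apart cannot alter a ratio between clusters 1 and 3. Leaving out each cell in turn enters through its lowest and its highest value.

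**Figure D5:**
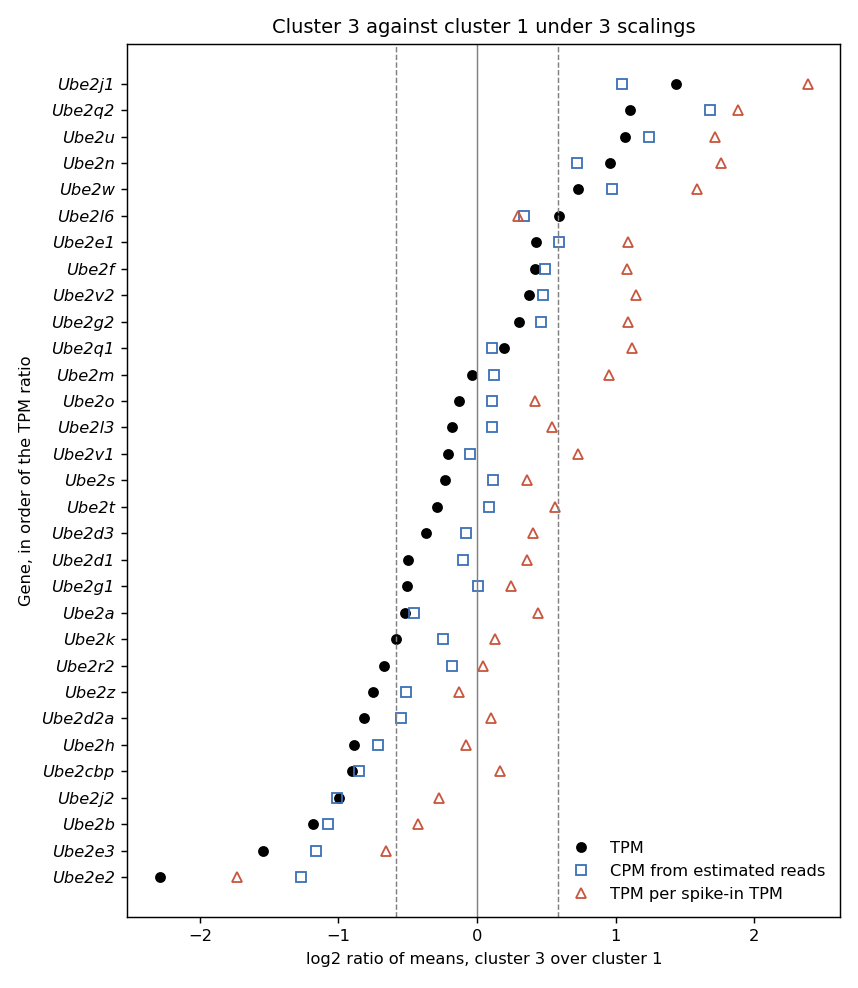
log2 ratio of mean TPM + 1 of cluster 3 to cluster 1 for coding Ube2 genes that passed the filter (filled circles), with the ratio by CPM (squares) and per spike-in TPM (triangles); dashed lines mark 1.5-fold. Ube2e2 and Ube2e3 lie past 1.5-fold below 0 on all 3 scales, and Ube2j1, Ube2q2, Ube2u, Ube2n and Ube2w lie past it above 0.

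The order of cells along the first principal component of the 20 genes, which held 36.7% of their variance, gave a view without clusters. Over all cells used, Spearman's rho with this order was -0.51 for Ube2e3, -0.39 for Ube2b, -0.35 for Ube2j2, -0.33 for Ube2e2 and -0.30 for Ube2d2a. It was 0.47 for Ube2n, 0.30 for Ube2j1 and Ube2q2, and 0.29 for Ube2v2, which was not called between clusters. Of the genes called lower in cluster 3, Ube2z (-0.20), Ube2r2 (-0.13), Ube2h (-0.04) and Ube2cbp (-0.006) were nearer to 0. For all coding genes the median was 0.02 and the central 90% ran from -0.36 to 0.42, so Ube2e3, Ube2b and Ube2n lay outside it. Of the 33 genes, 16 had a positive rho and 17 a negative one. Within the 86 cells of cluster 2 alone, rho was 0.41 for Ube2n and -0.28 for Ube2e3. It was -0.26 for Ube2d2a, -0.25 for Ube2b, -0.19 for Ube2j2, -0.08 for Ube2e2, 0.15 for Ube2j1 and 0.09 for Ube2q2, all closer to 0 than over all cells. The cells share the pool of ovaries, and the order itself had a rho of 0.29 with mitochondrial share, 0.32 with genes detected and 0.17 with reads. Ube2e3 and Ube2b had a rho of -0.39 and -0.31 with mitochondrial share and Ube2n 0.07, and the part of that share in their order was not tested. On the spike-in scale rho was -0.19 for Ube2e3, -0.02 for Ube2b and 0.56 for Ube2n.

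The Ube2 genes were only weakly related to each other from cell to cell. Over the 406 pairs among the 29 genes with a mean of at least 10 TPM, the median rho was 0.10 over all cells used, beside 0.05 for pairs among 7340 genes. The highest were Ube2l3 with Ube2d3 (0.52), Ube2v1 with Ube2d3 (0.51) and Ube2g1 with Ube2v1 (0.50), and the lowest was Ube2t with Ube2g2 (-0.27). Ube2d3, Ube2v1 and Ube2l3 also had the most negative rho with mitochondrial share, at -0.58, -0.52 and -0.52. Related genes were mostly near that median: rho was 0.23 for Ube2e2 with Ube2e3, -0.02 for Ube2e1 with Ube2e2, 0.22 for Ube2g1 with Ube2g2, 0.15 for Ube2q1 with Ube2q2, and -0.04 for Ube2n with Ube2v1. Ube2n with Ube2v2 had 0.30.

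The rest of the pathway was read from lists of genes by role, with the same fold rule and the same shares of all genes (25.1% higher, 32% lower between clusters 1 and 3). Of the 9 E1 genes that passed the filter, 6 were lower in cluster 3 and 0 higher, with a median log2 ratio of -1.08. The SUMO E1 subunits were among them: Uba2 averaged 374, 266 and 177 TPM (log2 ratio -1.08) and Sae1 116.2, 98.95 and 49.4 TPM (-1.22). The NEDD8 E1 subunits Uba3 and Nae1 had ratios of -1.28 and -1.87, and Uba6 -0.94. The main ubiquitin E1, Uba1, had -0.51. Per spike-in TPM, Uba2 (-0.30) and Uba6 (-0.30) were under 1.5-fold, and Uba3 (-0.77), Nae1 (-0.98) and Sae1 (-0.59) were not.

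Among 8 E2 genes with other symbols, 3 were higher and 2 lower. Ufc1, the E2 for UFM1, had a log2 ratio of 1.83, Cdc34, which serves cullin ligases, 0.59, and its copy Cdc34b 0.65 at a mean of 0.733 TPM. The autophagy E2 Atg3 had -1.09 and Aktip -0.88, but per spike-in TPM they had -0.25 and 0.01, under 1.5-fold. Ufc1, Cdc34 and Cdc34b stayed past it as higher on that scale. Of 12 modifier genes, 3 were higher (Ufm1 0.76, Nedd8 0.64, Sumo3 0.62) and 3 lower, among them Atg12 (-1.02). Per spike-in TPM Atg12 had -0.14, under 1.5-fold, while Ufm1, Nedd8 and Sumo3 stayed past it. The polyubiquitin gene Ubb averaged 4971, 5385 and 4757 TPM with a ratio of -0.06, and of 0.67 per spike-in TPM.

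Of 30 E3 genes and partners, 5 were higher and 11 lower in cluster 3. The ratios of these genes, and of the modifiers and other E2 genes above, are by TPM unless stated. The lower ones included Rnf212 (-2.85) and Ccnb1ip1 (-1.91), which govern meiotic crossing over, Rad18 (-2.10), the partner of Ube2a and Ube2b, and Fancl (-2.07), the partner of Ube2t. Rad18 averaged 189 (SD 105.9), 103.8 (SD 84.6) and 43.3 TPM (SD 73.5). Pias2 (-1.59), Pias3 (-0.81) and Pias1 (-0.78), which are SUMO ligases, and Nedd4 (-1.46), Hltf (-1.29), Anapc2 (-1.07) and Ubr2 (-0.78) were the others. Per spike-in TPM, Hltf (-0.52), Ubr2 (-0.25), Pias3 (-0.22) and Pias1 (-0.007) were under 1.5-fold. The other lower genes stayed past it, from Rnf212 (-1.97), Rad18 (-1.80) and Fancl (-1.36) to Anapc2 (-0.84). The histone ligases Rnf20 (-0.14) and Rnf40 (-0.38) did not pass 1.5-fold, though per spike-in TPM Rnf20 did so as higher (0.596). The higher ones included Rnf8 (1.83), which calls Ube2n to DNA breaks and averaged 77.7, 284 and 278 TPM. Rnf7 (1.05) and Dcun1d1 (1.00), which act with Ube2f and in NEDD8 transfer, were also among them. So was Anapc11 (0.96), the RING subunit of the anaphase-promoting complex. Per spike-in TPM these named genes were still past 1.5-fold as higher.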

How the data were processed

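The material was 146 Smart-seq2 libraries of picked P0.5 germ cells. Salmon was run by the authors, with its correction for sequence bias, on mm10 plus the spike-in sequences. Each deposited table lists TPM, which sum to 1000000 with spike-ins and mitochondrial genes included, beside estimated counts (expected counts of reads), which the authors did not normalize and which need not be whole.

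Libraries whose log2 CPM correlated above 0.95 were averaged as 1 cell, with reads summed, which left 139 cells, and 138 after the limit of 1 TPM of Ddx4. The chi-square between libraries used 13935 genes with at least 20 reads in a library. Coding genes (13817) were symbols with a coding match in GENCODE M21 or RefSeq and at least 0.1 TPM in at least 10 cells. Seurat 5.3.0 under R 4.3.3 normalized and scaled TPM and clustered the cells on the 20 feature genes (10 principal components, 20 neighbours, resolution 0.2, which was the lowest to give 3 clusters). Ratios are log2 of mean TPM with a pseudocount of 1, and intervals of shares are exact (Clopper-Pearson, 95%). Python 3.11.15 was used with SciPy 1.17.1, NumPy 2.4.6, pandas 2.3.3, Biopython 1.88 (alignment of coding sequences) and matplotlib 3.10.9. The ratio calculation was tested on simulated data. With all cells in 1 sample there is no test.

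The genes named are all members past 1.5-fold in a ratio, the 10 of highest mean, the groups of related members, and pathway genes past 1.5-fold between clusters 1 and 3 with a fixed few others, apart from a few genes that are not reported here. The members and lists were chosen with earlier results of these data known. Alternatives were means of log2 values, a pseudocount of 0.1, other filters, CPM, spike-in scaling, other cells and clusters, and each cell left out in turn.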

Additional observations from a re-analysis of the deposited data

How the results depend on the processing

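Of 35 member ratios past 1.5-fold, 28 kept their direction under all 16 alternatives (560 values: 534 the same, 17 moved, 9 reversed). A value counted as the same could still lie under 1.5-fold, so these figures do not say how many calls held. The log2 ratio of Ube2d2a between clusters 2 and 1 was -0.61. With bins of equal size on the first component it was -0.17, which was counted as the same. That ratio was past 1.5-fold in 10 of the 16 alternatives. The ratios that stayed past it in all of them are named above. The counts of members past 1.5-fold depended mainly on the scale. Dividing by spike-in TPM, 22 members were higher and 1 lower in cluster 3 against cluster 2 (45.4% and 7.82% of all genes), and 13 and 2 against cluster 1 (41% and 17.8%). Taking the median of all genes from these values, which was added after seeing the data, gave 8 and 3 (23.5% and 19.2% of all genes), and 12 and 4 (31.3% and 26.3%). Log means and CPM each gave 3 lower in cluster 3 against cluster 2 (10.7% and 22.5% of all genes). With clusters from 2000 variable genes, 4 members were higher in cluster 3 (18.4% of all genes) and 3 in cluster 2 (15.9%), each against cluster 1. Bins of equal size on the first component gave 3 higher and 3 lower in cluster 2 against cluster 1 (14.9% and 20.4% of all genes). Leaving out each cell in turn gave 4 to 7 higher and 5 to 6 lower between clusters 1 and 2, 2 to 4 and 4 to 5 between clusters 2 and 3, and 6 to 7 and 8 to 10 between clusters 1 and 3. Counting libraries of 1 cell apart, also added later, gave the counts of the report (5 and 6, 3 and 5, 7 and 9). The shares of all genes were then 21.8% and 19.6%, 15.7% and 25.8%, and 25.1% and 32%. Per spike-in TPM, the log2 ratio reversed for Ube2d2a (0.0982), Ube2r2 (0.0432) and Ube2cbp (0.162) between clusters 1 and 3, and for Ube2r2 (0.0841) and Ube2g2 (0.0637) between clusters 2 and 3. With this division the median over all genes went from -0.08 to 0.34 between clusters 1 and 3, and from -0.14 to 0.49 between clusters 2 and 3. Ube2l6, which rests on 10 cells, reversed between clusters 1 and 2 without cells of high globin (0.0814) and between clusters 1 and 3 with spike-in values less the median (-0.0477). With each cell left out in turn its ratio ran from -1.79 to 0.38 and from -0.0087 to 2.46. No paired analysis was possible because all cells belong to 1 group.

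Which animal each cell came from is not known, so no error between animals can be given. Ube2e2, Ube2l6, Ube2u and Ube2d2b rest on few reads or few cells, and an absence in a cell can be a failure of capture. Ube2v1, Ube2h, Ube2l3, Ube2q2 and Ube2n share sequence with other genes or pseudogenes, and how the reads were divided among them was not tested.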
